A study of Mus musculus with 4 samples.

Results

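The genes described here are 10 members of the HSP70 chaperone superfamily, read in bulge cells from mouse skin, where the bulge is the niche that holds hair follicle stem cells. They were taken by name from a table of 55536 genes: Hspa8, Hspa1a, Hspa1b, Hspa2, Hspa5, Hspa9 and Hspa13, and the HSP110 branch Hspa4, Hspa4l and Hsph1. Hspa8 was included because it had been noted as higher in the knockout, so its difference between the groups, and those of the other 9 in the same contrast, are given as a description and not as a test. The other 9 genes were listed as members of the family, with earlier results of these data known. Further genes of the superfamily are given below as a separate list.

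RNA was sequenced from 2 libraries of knockout mice and 2 of control mice, all on a C57BL/6 background. In the knockouts, tamoxifen-inducible Cre (CreERT2) under the promoter of Cdh5, a gene of endothelial cells, deleted floxed Alk1 (flox/flox), while the controls were littermates without Cre. Every mouse, controls included, received tamoxifen at 100 µg per g of body weight at postnatal day 17 and was sampled at postnatal day 20. The titles number the mice 1 and 2 within each group, and the sources used here do not say whether each library came from 1 animal. An SD therefore measures the spread between these libraries. An SE comes from a fit that shares information on variance between genes, so it is not a gene's own spread alone. Deletion was directed at vessels and not at the bulge cells read here, and Acvrl1, the gene of Alk1, measured 21.6 and 24.3 CPM (counts scaled to the effective library size) in controls and 17.9 and 23.1 CPM in knockouts, which does not check the labels. Depth ran from 16326906 to 29130974 counts per library. All 10 bulge markers checked held counts, with Krt15, a bulge keratin, at 29088 and 34397 CPM in controls, against 36017 and 34786 CPM in knockouts. Without overlap between the groups, 2 of the 10 (Krt15 and Krt14) were higher in knockouts and 1 (Lhx2) was lower. Among all tested genes, 21.3% were higher and 23.6% lower in this way.

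HSP70 proteins bind short unfolded stretches of other proteins and release them in a cycle driven by ATP. J-domain proteins bring the client and trigger ATP hydrolysis, and nucleotide exchange factors, among them the HSP110 proteins, let ADP go so that the client is freed. Most members serve a compartment: Hspa8 and the heat-inducible Hspa1a and Hspa1b the cytosol and nucleus, Hspa5 and Hspa13 the endoplasmic reticulum (ER), and Hspa9 the mitochondrion. Heat shock factor 1 (Hsf1) drives the heat-inducible genes, while the unfolded protein response drives Hspa5.

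Several members have near-identical copies in the genome, and a short read can be given to a copy only where the sequences differ, so these differences are shown first. The Hspa8 coding sequence has 1941 bases, and the processed pseudogene Gm15459 (chromosome 5, 5781615 to 5783555, minus strand, GRCm38) aligned to all of it with 5 mismatches and 0 gap bases, an identity of 99.74%. The 5 differences are written with the Hspa8 base first, the position counted from 1 at the first coding base, and the Gm15459 base last. Each stretch below has 15 bases on either side of the base that differs, which is in capitals.
Hspa8 at G114A: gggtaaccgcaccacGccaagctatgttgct
Gm15459 at G114A: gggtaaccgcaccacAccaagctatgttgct
Hspa8 at C414T: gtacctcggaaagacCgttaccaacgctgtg
Gm15459 at C414T: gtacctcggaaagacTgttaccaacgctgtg
Hspa8 at C549T: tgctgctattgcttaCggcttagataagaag
Gm15459 at C549T: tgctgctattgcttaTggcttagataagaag
Hspa8 at G1222A: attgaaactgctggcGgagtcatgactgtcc
Gm15459 at G1222A: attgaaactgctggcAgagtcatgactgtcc
Hspa8 at C1440T: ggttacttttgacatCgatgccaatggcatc
Gm15459 at C1440T: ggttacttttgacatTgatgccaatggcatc

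The differences lie 135 to 673 bases apart. Of the stretches of 100 bases in the main Hspa8 mRNA (2394 bases, GENCODE M21), 58.5% occurred unchanged in Gm15459, and of stretches of 50 bases, 70%. In the other direction, 72.9% of the 100-base stretches of Gm15459 occurred in that mRNA. The mRNA also has 453 bases outside the coding sequence, which the annotated transcript of Gm15459 does not include. The genome on either side of that transcript was not searched for them.

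Hspa1a and Hspa1b lie side by side on chromosome 17, and their coding sequences (1926 and 1929 bases) differed at 8 of 1926 aligned bases and by 3 gap bases. Over all of their transcripts, 56.5% of the 100-base stretches of Hspa1a and 49.9% of those of Hspa1b occurred in another gene's transcript. The split of counts between these genes is therefore uncertain, and their sum is given beside each. Of the other 7 members, Hspa4l and Hspa9 shared 0.356% and 2.81% of their 50-base stretches with other genes, and Hspa2, Hspa4, Hsph1, Hspa5 and Hspa13 shared 0.

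The promoters of Hspa1a and Hspa1b are also close to identical. RefSeq's table (GRCm38.p6) held windows for 7 of the 10 members, and the 250 bases before the start are shown for this pair because they carry the core of a heat shock element, the site bound by Hsf1. The core GAANNTTC is in capitals, 104 bases before the start in each, and 247 of the 250 bases are the same. The window of Hspa1a is chr17:34972157-34972406 and that of Hspa1b chr17:34959239-34959488, both on the minus strand.
Hspa1a: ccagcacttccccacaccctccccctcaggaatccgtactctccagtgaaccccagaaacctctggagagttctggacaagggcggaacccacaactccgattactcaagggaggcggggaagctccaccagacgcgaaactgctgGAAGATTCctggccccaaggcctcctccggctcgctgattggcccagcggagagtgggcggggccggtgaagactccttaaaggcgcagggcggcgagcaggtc
Hspa1b: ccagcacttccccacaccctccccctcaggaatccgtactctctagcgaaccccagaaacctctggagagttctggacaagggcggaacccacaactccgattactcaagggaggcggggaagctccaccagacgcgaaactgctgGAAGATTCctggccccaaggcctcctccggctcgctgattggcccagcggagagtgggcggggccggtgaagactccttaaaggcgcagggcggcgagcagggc

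The cores GAANNTTC and TTCNNGAA, each its own reverse complement, were searched in the 250 bases before the start, and 12.8% of all 32851 windows held at least 1. Among the 7 members with a window, Hsph1 was the other with a core, TTCNNGAA. No window was held for Hspa8, Hspa9 and Hspa13, so their promoters were not searched. The ER stress response element, a CCAAT and a CCACG separated by 9 bases and searched on both strands, was found in the window of Hspa5 and in 0.113% of all windows. These stretches of 30 bases have the motif in capitals, on chr5:149636351-149636380 (minus strand) and chr2:34772020-34772049 (plus strand). The start is that of RefSeq, and the core of Hsph1 lay 33 or 54 bases before it, depending on the window. In GENCODE both genes begin further upstream (Hsph1 at 149636376, Hspa5 at 34771970), so both motifs lie inside the genes as annotated there. Neither core and no ER element was found in the windows of Hspa2, Hspa4 and Hspa4l.
Hsph1: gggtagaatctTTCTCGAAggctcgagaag
Hspa5: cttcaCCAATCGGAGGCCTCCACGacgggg

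All 10 genes were well above the filter on low counts, with 529 counts or more in every library. Levels are compared between genes as CPM per kilobase of exon. Hspa8 stood highest, from 129 to 245 CPM per kilobase over the 4 libraries, above Hspa1b at 90.4 to 125 with no overlap. Hspa5, the ER chaperone known as BiP, followed at 43.3 to 77.9 and overlapped Hspa9, the mitochondrial chaperone mortalin, at 44.6 to 48.8. Hspa4 (28.1 to 42.02) and Hspa1a (29.4 to 36.98) also overlapped each other, and lay below Hspa9 and above Hspa2, best known for its role in sperm development, at 13.4 to 16.9. The lowest were Hsph1 (3.73 to 10.03), Hspa4l (5.09 to 6.86) and Hspa13 (3.71 to 5.73), whose ranges overlapped. As counted, Hspa1b, a heat-inducible gene, was thus the second highest member in libraries whose labels name no heat treatment. The places of Hspa1b and Hspa1a follow the split of counts between them, which is uncertain.

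**Figure D1:**
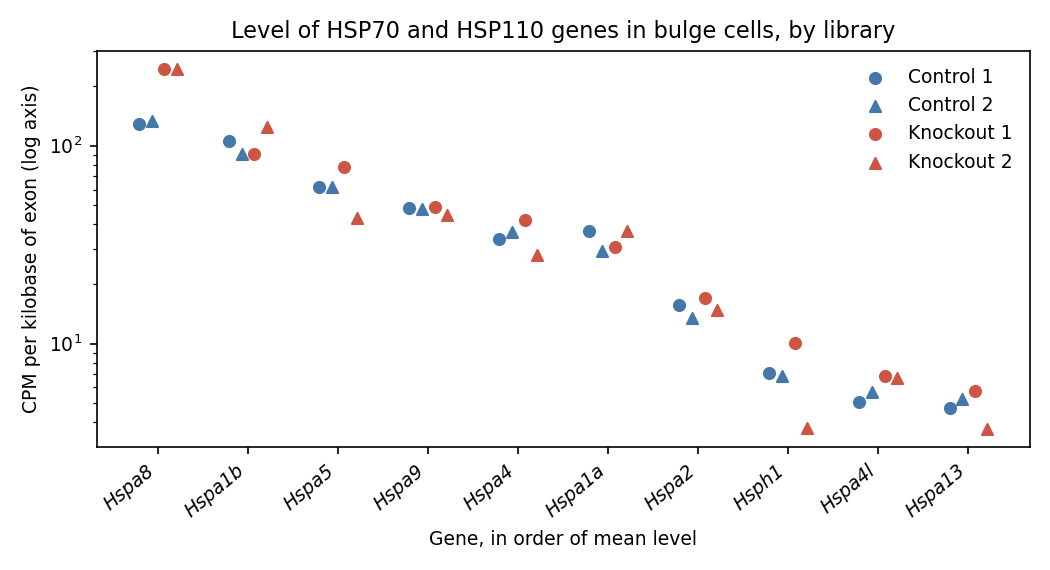
Level of each gene in CPM per kilobase of exon (log axis) in each of the 4 libraries, controls in blue and knockouts in red, circles for replicate 1 and triangles for replicate 2. Hspa8 is highest in every library and its 2 knockout points lie above its 2 control points. For Hspa5, Hspa4, Hsph1, Hspa13 and, over a narrower range, Hspa9, knockout 1 is the highest library and knockout 2 the lowest.

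Hspa8, the constitutive cytosolic chaperone that also strips clathrin from vesicles, lies on chromosome 9 (40800984 to 40810087, plus strand, GRCm38). It measured 554 and 573 CPM in controls 1 and 2 and 1051 and 1052 CPM in knockouts 1 and 2. Both knockouts were above both controls, and the libraries of each group lay close together. Their means were 564 ± 14 and 1051 ± 0.75 CPM (SD, n = 2 each), a ratio of 1.87 and a log2 fold change of 0.90 ± 0.12 (SE). The estimate ran from 0.87 to 0.95 when 1 library was left out. The gap between the knockouts was smaller in only 0.379% of the 14259 genes tested. As a share of the summed CPM of the 10 genes, Hspa8 made up 30.7% and 32.3% in controls and 43.6% and 47.5% in knockouts, while the other 9 together summed to 1249 and 1200.5 CPM in controls, against 1357 and 1162 CPM in knockouts. In bulk RNA, more cells that express a gene and more RNA per cell cannot be told apart.

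The counts of the copy moved the other way. Gm15459, chosen after its values were seen, measured 224 and 231 CPM in controls, against 156 and 159 CPM in knockouts, a log2 fold change of -0.53 ± 0.11 that did not pass with edgeR (adjusted p = 0.43) or with DESeq2 (adjusted p = 0.062). Of the counts given to Hspa8 and Gm15459 together, the copy held 28.8% (95% Wilson interval 28.05 to 29.6) and 28.7% (28.2 to 29.3) in controls. In knockouts it held 12.9% (12.5 to 13.3) and 13.1% (12.7 to 13.6). These intervals cover counting error only. The share was therefore alike within each group and lower in both knockouts, and from which of the loci the reads came was not tested. The summed level of the pair was 778 and 804 CPM in controls, against 1207 and 1211 CPM in knockouts, a ratio of 1.53 between the group means. With all 13 other transcripts that share 50-base stretches with Hspa8 added (small nucleolar RNAs left out), a sum chosen after seeing the data, the log2 fold change was 0.61 ± 0.12 in place of 0.90. The lower counts of Gm15459 in knockouts (a mean difference of -70.1 CPM) came to 14.4% of the difference in Hspa8 (488 CPM). Gm26825, a long noncoding RNA annotated on the opposite strand over Gm15459, held 1.62 and 2.27 CPM in controls, against 1.29 and 1.01 CPM in knockouts. The small nucleolar RNAs within the Hspa8 gene, Snord14c, Snord14d and Snord14e, were at 0 counts in these polyA-selected libraries.

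**Figure D2:**
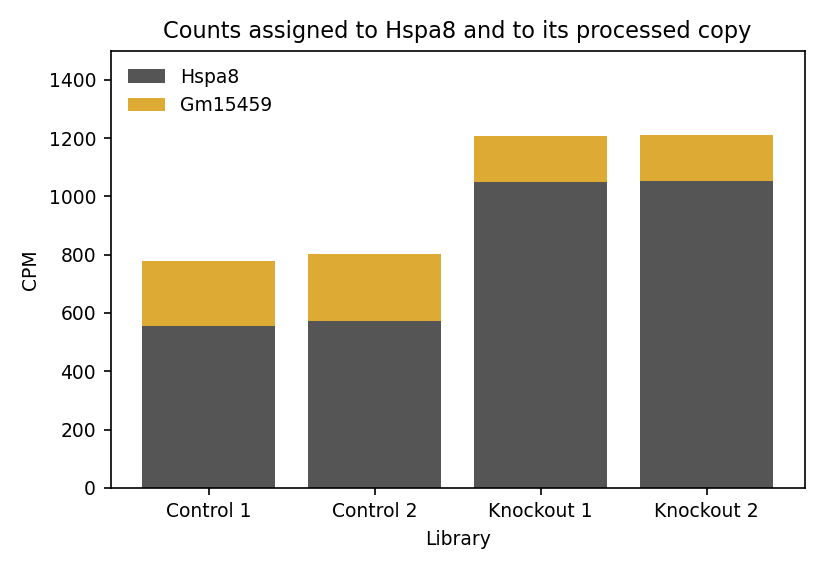
Stacked bars of the CPM assigned to Hspa8 (grey) and to its processed copy Gm15459 (yellow) in each library. The stack reaches 778 and 804 CPM in controls, against 1207 and 1211 CPM in knockouts, with a smaller yellow part in the knockouts.

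The inducible pair did not follow Hspa8. Hspa1b (chromosome 17, 34956436 to 34959238) measured 298 and 253 CPM in controls, against 256 and 351 CPM in knockouts. Hspa1a (34969190 to 34972156) measured 109.7 and 87.2 CPM in controls, against 91.7 and 109 CPM in knockouts. For both genes control 1 and knockout 2 were the higher libraries of their groups, and the groups overlapped. The log2 fold changes were 0.14 ± 0.19 and 0.03 ± 0.16, and 0.11 ± 0.18 for their sum, which measured 407, 340.5, 347 and 461 CPM in the same order. Leaving out knockout 2 turned the sign of both (-0.11 for Hspa1b and -0.10 for Hspa1a), and leaving out control 2 turned that of Hspa1a (-0.10). Hspa1a took 23.7% to 26.9% of the counts of the pair in all 4 libraries. Immediate early genes, a list of 15 that tissue dissociation is known to induce, summed to 735 and 641 CPM in controls, against 606 and 923 CPM in knockouts. This sum was highest in knockout 2 and next in control 1, like that of Hspa1a and Hspa1b. Not all genes of the list had this order. Junb had it, while Jun was at 206 and 184 CPM in controls, against 150 and 176 CPM in knockouts. The part of these genes in the values of Hspa1a and Hspa1b was not tested.

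Hspa2 (chromosome 12) measured 41.5 and 35.5 CPM in controls, against 44.6 and 39.1 CPM in knockouts, and the groups overlapped (log2 fold change 0.12 ± 0.15). Hspa9 (chromosome 18), which pulls proteins into the mitochondrion, was among the steadiest members, at 208 and 207 CPM in controls, against 210.3 and 192 CPM in knockouts (-0.05 ± 0.12). Its highest library was knockout 1 and its lowest knockout 2, over a narrow range. For neither gene did the difference exceed its standard error.

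The HSP110 proteins, which reload HSP70 by exchanging its nucleotide, differed among themselves. Hspa4l (chromosome 3, 40744495 to 40796103) measured 59.98 and 66.7 CPM in controls, against 80.9 and 78.8 CPM in knockouts, so both knockouts lay above both controls. The means were 63.4 ± 4.8 and 79.8 ± 1.4 CPM (SD, n = 2 each) and the log2 fold change 0.33 ± 0.12, with 0.26 to 0.44 when 1 library was left out, and 0.52 with the trend on exon length and GC content removed. Hspa4 (chromosome 11) measured 186 and 203 CPM in controls, against 232 and 155 CPM in knockouts. Hsph1 (chromosome 5, 149614287 to 149636376), also induced by heat, measured 51.7 and 49.96 CPM in controls, against 72.9 and 27.1 CPM in knockouts. In both genes knockout 1 was the highest library and knockout 2 the lowest, and the controls lay between them. The mean of Hsph1 was 50.8 ± 1.2 CPM (SD, n = 2) in controls, while the knockouts differed from each other by a ratio of 2.69.

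In the ER, Hspa5 (chromosome 2, 34771970 to 34777547) measured 262 and 261 CPM in controls, against 329 and 183 CPM in knockouts. Hspa13 (chromosome 16), an ER-associated member that lacks the client-binding domain, measured 32.1 and 35.8 CPM in controls, against 39.2 and 25.3 CPM in knockouts. Both had the same order as Hspa4 and Hsph1, with knockout 1 highest and knockout 2 lowest. For these 4 genes the log2 fold change between the groups was near 0 (-0.01 ± 0.20 for Hspa4, -0.02 ± 0.42 for Hsph1, -0.03 ± 0.27 for Hspa5 and -0.08 ± 0.22 for Hspa13) and was set by which knockout library was used. Without knockout 1 it was -0.33, -0.91, -0.52 and -0.43 in that order, and without knockout 2 it was 0.25, 0.52, 0.33 and 0.20.

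**Figure D3:**
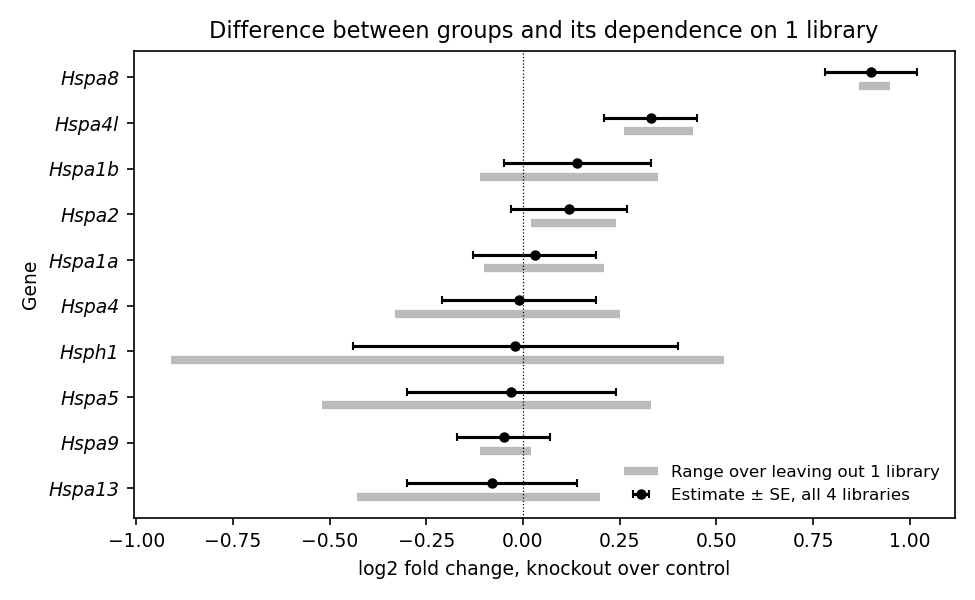
Log2 fold change of each gene, knockout over control, with its standard error from the fit of all 4 libraries (black) and the range of the estimate when each library is left out in turn (grey bars). The grey bars of Hspa8 and Hspa4l stay close to the estimate, and those of Hsph1, Hspa5, Hspa13, Hspa4, Hspa1a, Hspa1b and Hspa9 cross 0.

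The spread within a group was thus larger in knockouts for several members. Between the controls, 0 of 10 genes differed by over 0.5 on the log2 scale, where 16.3% of all tested genes did. Between the knockouts, 4 of 10 did, where 25.0% of all tested genes did. The median absolute gap was 0.14 between controls and 0.36 between knockouts for the 10 genes, against 0.16 and 0.26 for all tested genes. The gap of Hsph1 between the knockouts, 1.42, was larger than that of 97.0% of tested genes, and the gap of Hspa5, 0.85, than that of 89.4%. No test of this spread was made, since a group has only 2 libraries. Markers of interfollicular differentiation, 8 of 8 with counts, summed to 12202 and 4139 CPM in controls, against 8027 and 3641 CPM in knockouts, and sebaceous gland markers, 8 of 8, to 696 and 312 CPM and to 457 and 297 CPM. Both were higher in replicate 1 of each group, whereas these 4 chaperone genes separated only the knockouts, and the part of such cells in the result was not tested.

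**Figure D4:**
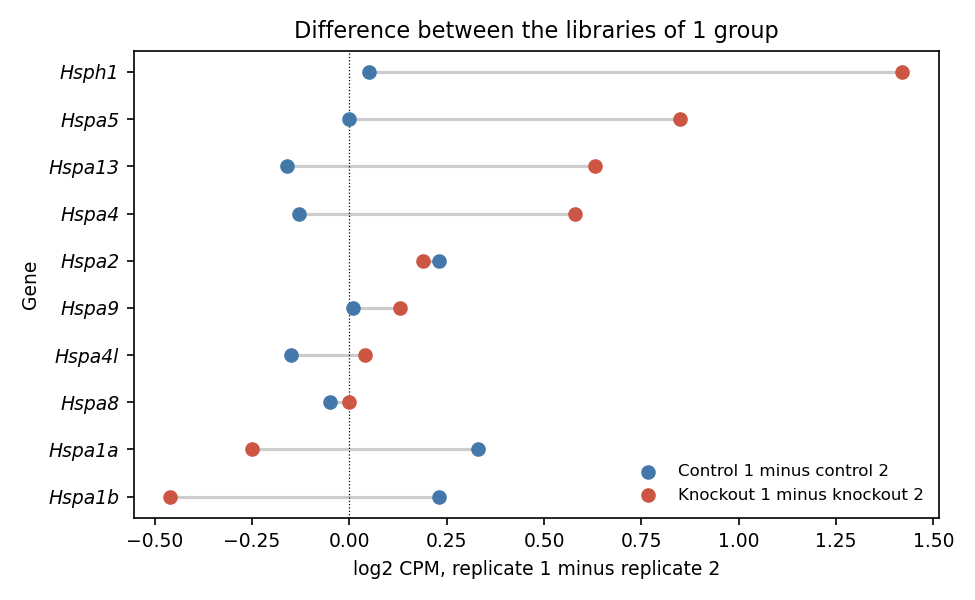
Difference in log2 CPM between replicate 1 and replicate 2 within the controls (blue) and within the knockouts (red) for each gene. Control points lie between -0.16 and 0.33, while knockout points run from -0.46 for Hspa1b to 1.42 for Hsph1.

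Over the whole table, the quasi-likelihood test of edgeR, with p-values adjusted by Benjamini-Hochberg and a threshold of 0.05, called 1 gene (0.00701% of those tested were higher and 0 lower), and 0 of the 10 members. At an unadjusted p under 0.05, 2 members were higher (Hspa8 and Hspa4l), where 4.80% of tested genes were higher, and 0 were lower, where 5.94% were. DESeq2 called 1 member, Hspa8, as higher, where 0.262% of genes were called higher, and 0 as lower, where 0.540% were. Nothing is read from these counts, since Hspa8 was chosen on this contrast. Of the 10 members 5 had a log2 fold change above 0, with a median of 0.01, against 47.5% and -0.02 for all genes tested. The knockouts lay above the controls without overlap for 2 of 10 (Hspa8 and Hspa4l), where 21.3% of tested genes did, and below for 0, where 23.6% did. For the 9 members without Hspa8, 4 (44.4%) were above 0 and the median was -0.01, near the middle of all genes in the fit of all 4 libraries. This place moved with the library left out: the median of the 10 members was -0.05 without knockout 1 and 0.23 without knockout 2.

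Summed marker levels of other cells are given beside Hspa8, whose groups did not overlap. Melanocyte markers (8 of 8 with counts) summed to 114 and 135 CPM in controls, against 86.4 and 90.3 CPM in knockouts. Mitf made up most of this sum (104 and 117 CPM, against 71.6 and 74.5 CPM), and the other 7 markers summed to 10.2 and 17.4 CPM in controls, against 14.8 and 15.8 CPM in knockouts, which overlapped. Without overlap, 3 of the 8 were lower and 1 was higher. Fibroblast markers (6 of 6) summed to 183 and 233 CPM in controls, against 136 and 140.2 CPM in knockouts, nearly all of it from the collagen genes Col1a1 and Col1a2, the 2 markers that were lower without overlap. The other 4 summed to 3.23 and 4.30 CPM in controls, against 2.71 and 8.38 CPM in knockouts, and 1 of them, Lum, was higher without overlap at 1 count in each knockout and 0 counts in each control. Of 7 T cell markers, 4 (Cd3d, Cd3e, Cd3g and Trdc) were higher without overlap and 0 lower, where 21.3% and 23.6% of tested genes were, although the sum, from 28.2 to 40.7 CPM, overlapped. Cd3g measured 3.41 and 2.13 CPM in controls, against 5.88 and 4.41 CPM in knockouts. Sums of endothelial (7.31 to 23.9 CPM) and of macrophage or Langerhans cell markers (35.9 to 44.8 CPM) overlapped between the groups, as did bulge markers (62804 to 77792 CPM). Without overlap, 1 of 8 endothelial markers (Tek) was higher and 1 (Cdh5) lower, against the same 21.3% and 23.6%. Cdh5 measured 1.38 and 0.305 CPM in controls, against 0.138 and 0.144 CPM in knockouts. Of 7 macrophage or Langerhans cell markers, 0 were higher in this way and 1 (Lyz2, under 1 CPM) was lower. Every marker had a count in at least 1 library, while Cldn5, of the endothelial list, was at 0 in 3 of the 4 libraries, and Mlana (melanocyte) and Aif1 (macrophage) were at 0 in 1. The part of these cells in the level of Hspa8 was not tested.

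Among 9107 genes searched, those whose pattern over the 4 libraries lay nearest to that of Hspa8 were Htra1, Rhoc, Scx, Cebpd and Fxyd6. Distance was taken between log2 CPM centred on each gene's mean. Predicted genes, genes with Rik symbols and pseudogenes were left out of the search. The nearest was Htra1, a secreted protease, at a distance of 0.157, with 300.2 and 319 CPM in controls, against 533 and 510 CPM in knockouts. Rhoc, a small GTPase, was at 0.219, and the transcription factors Scx and Cebpd were at 0.264 and 0.266. Fxyd6, a regulator of the sodium pump, was at 0.271. With 4 libraries, this likeness says little more than that the genes were higher in both knockouts to a like degree.

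Genes that work with HSP70, or that the same stress responses control, were taken from 12 lists, 124 genes in all, of which 120 were tested. With edgeR 0 passed the threshold (0.00701% of all genes were called higher), while DESeq2 called 2 as higher (0.262% of all genes), Dnaja4 among them. At an unadjusted p under 0.05, 13 were higher (10.8%, against 4.80% of all genes tested) and 0 lower (against 5.94%). Of the 120, 77 had a log2 fold change above 0 (64.2%, against 47.5% of all genes), with a median of 0.09 against -0.02. The knockouts lay above the controls without overlap for 46 (38.3%, background 21.3%) and below for 10 (8.33%, background 23.6%). The count above 0 ran from 63 (52.5%, median 0.04, without knockout 1) to 92 (76.7%, median 0.16, without knockout 2) when a library was left out.

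Further HSP70 superfamily genes, 4 of which were tested, had a median of -0.19 that was 0.13 without control 1. Hspa14, a ribosome-associated member, gave -0.11 ± 0.17 and Hspa12a, a distant relative, -0.33 ± 0.33.

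J-domain proteins, which trigger the ATPase of HSP70, had 16 of 26 genes above 0 and a median of 0.11, which was 0.05 without knockout 1. Dnaja4, a farnesylated cytosolic member of this class, measured 108 and 104 CPM in controls, against 153 and 156 CPM in knockouts. Its log2 fold change was 0.55 ± 0.11 (edgeR adjusted p = 0.43, DESeq2 adjusted p = 0.036). Dnaja2 and Dnajb1, the J-domain genes of highest level, gave 0.26 ± 0.12 and 0.21 ± 0.14, and Dnajb5 had the lowest value at -0.47 ± 0.20. The list of nucleotide exchange factors and BAG-family genes outside the HSP110 branch had 8 of 10 genes above 0 and a median of 0.15. Bag5, a BAG-domain exchange factor, gave the largest value of these (0.41 ± 0.13, edgeR adjusted p = 0.43), and Bag6 and Bag1, the most abundant, gave -0.08 ± 0.12 and 0.17 ± 0.16. The lowest was Bag2 at -0.13 ± 0.25.

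Adaptors and co-chaperones between HSP70 and HSP90 had 9 of 14 above 0 and a median of 0.06. This median was -0.01 without knockout 1 and 0.18 without knockout 2. Unc45a, a co-chaperone of myosin folding, measured 204 and 152 CPM in controls, against 248 and 259 CPM in knockouts (0.51 ± 0.17, edgeR adjusted p = 0.43). Fkbp4 and Cdc37, which work with HSP90 on steroid receptors and kinases, gave 0.06 ± 0.20 and 0.13 ± 0.12. The lowest was Ppid, a cyclophilin of HSP90 complexes, at -0.15 ± 0.18. The 4 HSP90 genes had a median of 0.00 that was -0.27 without knockout 1. Hsp90ab1, the constitutive cytosolic form, measured 1964 and 1925 CPM in controls, against 2269 and 2246 CPM in knockouts (0.22 ± 0.12, edgeR adjusted p = 0.53). Its inducible relative Hsp90aa1 overlapped between groups (0.18 ± 0.19), and the mitochondrial Trap1 gave -0.22 ± 0.20.

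Chaperonins and prefoldin, which fold actin, tubulin and other newly made proteins, had 15 of 16 genes above 0 and a median of 0.23, with 11 of 16 above the controls without overlap, where 21.3% of all tested genes were. The median was 0.15 without knockout 1. Of 8 subunits of the cytosolic CCT ring, 8 were above 0, from 0.11 to 0.42, and 6 of the 8 were above the controls without overlap, against the same 21.3%. Cct4 measured 223 and 224 CPM in controls, against 292 and 307 CPM in knockouts (0.42 ± 0.12, edgeR adjusted p = 0.43), and Cct2 and Cct5 gave 0.30 ± 0.12 and 0.20 ± 0.13. The mitochondrial chaperonin Hspd1 was the list's member below 0 (-0.12 ± 0.22). It measured 153 and 95.9 CPM in the knockouts, on either side of the controls at 129.6 and 140.5 CPM. Mitochondrial chaperones, import genes and proteases had 10 of 13 above 0 and a median of 0.13. Lonp1, a matrix protease, gave 0.06 ± 0.11, and Hscb, a co-chaperone of iron-sulfur cluster assembly, 0.38 ± 0.22.

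Of 18 heat-inducible targets of HSF1 outside the family, 12 were above 0, with a median of 0.17 that was -0.01 without knockout 1. Ubb, a polyubiquitin gene, measured 861 and 962 CPM in controls, against 1109 and 1296 CPM in knockouts, and its log2 fold change was 0.40 ± 0.14 (edgeR adjusted p = 0.43). Its coding sequence consists of repeats, so the assignment of its reads is uncertain. Serpinh1, a collagen chaperone, was lowest at -0.24 ± 0.26. The heat shock factors and the HSF-binding protein gene Hsbp1 had 2 of 4 genes above 0 and a median of 0.01, which ran from -0.11 (without knockout 1) to 0.11 (without control 2). Hsf1 measured 34.4 and 35.3 CPM in controls, against 34.0 and 32.7 CPM in knockouts (-0.06 ± 0.13), and Hsf4, Hsbp1 and Hsf2 gave 0.34 ± 0.28, 0.09 ± 0.17 and -0.17 ± 0.21. Small heat shock proteins had 3 of 5 tested genes above 0, and their median of 0.21 was 0.03 among genes with at least 50 counts in at least 2 libraries, 0.36 without control 1 and 0.07 without control 2. Hspb8, which works with HSP70 in clearing proteins by autophagy, measured 452 and 440.4 CPM in controls, against 561 and 568 CPM in knockouts (0.34 ± 0.12, edgeR adjusted p = 0.43), and Hspb1 overlapped between groups (0.21 ± 0.23). Hspb6, at low counts, gave -0.33 ± 0.43.

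The unfolded protein response list, the ER setting of Hspa5, had 12 of 26 genes above 0 and a median of -0.04, near that of all genes, which was -0.16 without knockout 1, 0.08 without knockout 2 and 0.04 with the trend on length and GC content removed. Calr, an ER calcium-binding chaperone, measured 484 and 485 CPM in controls, against 469.6 and 329 CPM in knockouts (-0.28 ± 0.19, edgeR adjusted p = 0.60). Eif2ak3, the ER stress sensor PERK, gave -0.30 ± 0.14 and Herpud1, an ER degradation gene, 0.28 ± 0.21, while the disulfide isomerase gene Pdia3 gave 0.03 ± 0.16. Hyou1, an ER relative of HSP110 that exchanges the nucleotide of Hspa5, measured 104 and 108 CPM in controls, against 109 and 64.8 CPM in knockouts, the same order as Hspa5. Over the list, knockout 1 was above knockout 2 in 16 of 26 genes, with a median difference of 0.19. In all tested genes, knockout 1 was above in 49.9%. For the heat-inducible list that count was 14 of 18 (median 0.28), and for immediate early genes 0 of 14 (median -0.59). The immediate early list holds no HSP70 partners. Its median fold change, 0.33, was -0.36 without knockout 2, with Jun at -0.26 ± 0.14, Junb at 0.34 ± 0.21 and Fosb at 1.23 ± 0.80.

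Genes of clathrin coats and of chaperone-mediated autophagy, in both of which Hspa8 takes part, had 4 of 6 above 0 and a median of 0.24, which was 0.07 without control 2 and 0.09 without knockout 2. Lamp2, a lysosomal membrane protein that serves as receptor in this autophagy, measured 697 and 806 CPM in controls, against 867 and 919 CPM in knockouts (0.25 ± 0.13, edgeR adjusted p = 0.52). The clathrin light chain gene Clta measured 329 and 339 CPM and then 419 and 426 CPM (0.34 ± 0.12, edgeR adjusted p = 0.43), while the heavy chain gene Cltc gave -0.20 ± 0.16. Both knockouts lay above both controls for 3 of the 6 genes, Lamp2 and Clta among them and Cltc not, where 21.3% of tested genes did. They lay below for 0, where 23.6% did.

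**Figure D5:**
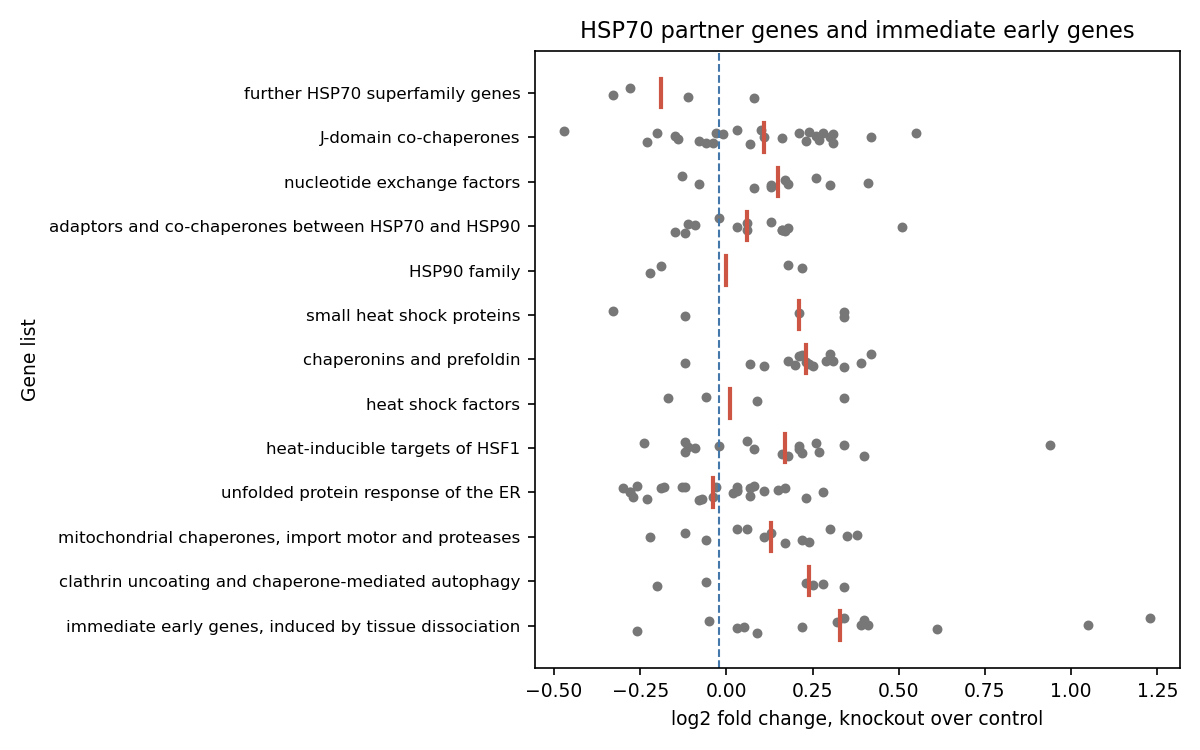
Log2 fold change, knockout over control, of each tested gene (grey points, spread vertically at random for view) in 12 lists of HSP70 partners and stress genes and a list of immediate early genes, with the list's median (red bar) and the median of all 14259 tested genes (blue dashed line, -0.02). Medians run from -0.19 for further HSP70 superfamily genes (0.13 without control 1) to 0.33 for immediate early genes (-0.36 without knockout 2), and 0 of the genes passed the edgeR threshold.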

How the data were processed

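The deposited table holds raw counts per Ensembl gene for 4 libraries, per the labels. The libraries were directional and polyA-selected, per the labels' protocols. Trim Galore 0.6.0, cutadapt, FastQC, STAR 2.7.0e, DESeq2 1.26.0 and GRCm38 (mm10) are named in the submitters' processing notes. How reads were counted, with which strand setting and with what treatment of reads that match several genes, is not stated in those notes or labels. All other values were computed from the counts. Identifiers were matched to GENCODE M21 (GRCm38) for symbols, exon lengths and transcript sequences.

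With R 4.3.3 and edgeR 4.0.16, filterByExpr kept 14259 of 24037 genes with a count. TMM normalization and the robust quasi-likelihood test followed, over all genes, without covariates. Each SE was the absolute log2 fold change over the square root of the F statistic of this test, which shares information on variance between genes. Effective library sizes scaled the CPM. The code was tested on simulated counts. The prior count of log2 CPM was 2. Alternatives were RLE and upper-quartile normalization, other filters, DESeq2 1.42.0, limma-voom (limma 3.58.1), the replicate number as a block, subtraction of a fitted trend over GC content and exon length, each library left out, and paralogs summed. The sum of Hspa8 with its copies was added after seeing the data.

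The members and lists were chosen with earlier results of these data known. Named were all members, and from each gene list the 2 genes of highest mean CPM and those with the highest and lowest log2 fold change (mean of at least 2 CPM). The 5 genes nearest to Hspa8 (mean of at least 10 CPM, no predicted gene, Rik symbol or pseudogene) were named too. A gene that this rule names is not reported here.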

Additional observations from a re-analysis of the deposited data

How the results depend on the processing

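The count of all genes past the threshold, 1 in the edgeR test, was 430 without a count filter, 101 with DESeq2, 106 with the replicate block and 2 with the trend on length and GC content removed, and it ran from 1 to 65 when a library was left out, 65 of them without knockout 1. Other normalizations, limma-voom and the stricter filter left it at 1. Hspa8 was among the genes called with DESeq2 (33 higher and 68 lower), without a count filter (163 and 267) and with the replicate block (25 and 81). No other member was called under any of these settings. Nothing is read from these calls, since Hspa8 was chosen on this contrast. Genes past the threshold in the partner and immediate early lists numbered 0 in the edgeR test, 3 without a count filter (Dnaja4 and Unc45a among them), 2 with DESeq2 (Dnaja4 among them), 1 with the replicate block and 0 to 1 when a library was left out (Fosb, without knockout 1).

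The median log2 fold change of the 10 members, 0.01, ran from -0.05 (without knockout 1) to 0.23 (without knockout 2) and lay between 0 and 0.09 with the other settings. Replicate numbers are shared by the groups but not stated to pair the mice. Across genes, the deviations of same-numbered libraries correlated at 0.122. With 2 libraries a group, an outlying library could not be told from the spread of its group. Measured per kilobase of the longest transcript, Hspa8 stood at 256 and remained highest, and Hspa4l and Hspa13 exchanged the last places.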
